A study of Homo sapiens with 5 samples.

Results

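Cisplatin combined with electroporation was compared with no treatment in human SK-MEL28 cells, an established melanoma line grown as a monolayer. Treated cells received cisplatin, a platinum drug that crosslinks DNA, together with 8 electric pulses of 100 µs at 1300 V/cm and a frequency of 1 Hz. Electric pulses of this kind open the cell membrane for a short time and let the drug in, and the combination is known as electrochemotherapy. The members were chosen by brightness alone: a probe belonged if, on both arrays, a share of 0.5 or more of its spots lay over local background + 2 standard deviations (SD) in 1 channel or the other. This rule kept 1578 of 3048 probes, and 1351 of the kept probes name 1296 of the 2078 genes named on the array.

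RNA of treated cells (Cy5) and RNA of untreated cells (Cy3) were hybridised together on spotted 2-colour oligonucleotide arrays, with 2 arrays for the combination and 3 arrays for cisplatin without pulses. Untreated cells served as the reference on each array and had neither drug nor pulses. No array held cells given pulses without cisplatin, so the share of the drug and the share of the pulses cannot be told apart against untreated cells. The cisplatin dose and the time from treatment to RNA extraction are not given for the arrays in the sources used here. The sources also do not say whether the arrays came from separate cultures, so that p-values cover the variation among these 5 arrays, which may be technical. In the study, the arrays belonged to the question of whether melanoma cells that survive electrochemotherapy differ in metastatic potential.

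Platinum adducts are removed mainly by nucleotide excision repair, and unrepaired crosslinks stall replication forks and activate checkpoint kinases. Cells then pause before DNA synthesis or mitosis, or die through the mitochondrial pathway or through death receptors of the TNF receptor family. Electric pulses add a physical stress, since the membrane must be resealed and calcium pumped back, and misfolded proteins are known to induce heat shock genes through heat shock factors. Melanoma cells also express pigment lineage genes such as MITF and TYR, and they depend on integrins, matrix proteases and receptor kinases when they spread.

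All 5 melanocyte markers on the array (TYRP1, SOX10, MITF, TYR and MLANA) were above background. Markers of other cell types were above background too, for 5 of 6 epithelial, 2 of 2 fibroblast, 4 of 5 endothelial and 4 of 6 leukocyte genes, so a signal above background did not separate cell types on this array. Between 1166 and 1765 probes per array were above background in Cy5 and between 1465 and 1710 in Cy3. The lowest Cy5 count was that of the first combination array. On the second combination array, 3.69% of the fourth listed spots lay more than 1 log2 unit from the other spots of their probe, against at most 0.172% at any other listed position or array. The last listed spots were therefore left out on all arrays, which kept 3 of 4 spots (5 of 8, 8 of 12). In this bulk RNA, fewer cells of a type and less RNA per cell cannot be told apart.

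Values are log2 ratios of treated over untreated, with background correction and loess normalization within each array, so a ratio of 0 is the trend of probes of equal brightness. Most genes stayed close to that trend. On both arrays 1263 members (80.0%) lay between -0.3 and 0.3, and the mean ratio of a member ranged from -1.10 to 0.57. Across members the arrays correlated with Pearson's r = 0.28 and Spearman's rho = 0.19, and 894 members (56.7%) had the same sign on both. This correlation is across probes that share both arrays and their dyes, and probes are not independent replicates. The median difference between the arrays was 0.14 without regard to sign, and the median SD among the spots of a probe was 0.15 on array 1 and 0.10 on array 2. The median half-width of the 95% interval of a member's mean was 0.18.

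No probe passed the test against untreated cells. In limma's moderated test over the 5 arrays, 0 of 3048 probes (0%) had an adjusted p under 0.05, and the lowest adjusted p was 0.053, shared by CD63, TBCA and the unnamed probe VM_H200016990. At an unadjusted p under 0.05 there were 282 probes, of which 182 were lower (5.97% of all probes) and 100 were higher (3.28%). Members made up 170 of the lower and 84 of the higher probes. Of all members, 60 were above background in the untreated channel only on both arrays, and 0 in the treated channel only. A probe can thus pass the brightness rule through the channel in which it is higher, so counts of lower and higher members are not independent of the rule. As a description without a test, 32 probes (1.05%) were at -0.3 or less on both arrays and 7 (0.23%) were at 0.3 or more on both. All of them were members at the offset of 50 used here, which shrinks the ratios of dim probes, and they name 25 and 6 genes. These counts depended on the scaling. They were 293 lower and 2 higher under median centring without loess, 130 and 90 with an offset of 0, of which 63 and 31 were members, and 248 and 222 with plain background subtraction, of which 80 and 49 were members. The share of lower probes among them was 82.1% here and ran from 52.8% with plain subtraction to 99.3% under median centring.

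Calls also depended on the setting. With both combination arrays in the model, limma called 39 probes under median centring without loess, 8 in the authors' value table, 7 with no correction of the background, 3 when only probes above background were tested, 3 with only the combination arrays in the model, 2 with scale normalization between arrays and 2 with the replicate number as a block. Leaving out the third cisplatin array gave 1 call, and the other alternatives gave 0.

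**Figure D1:**
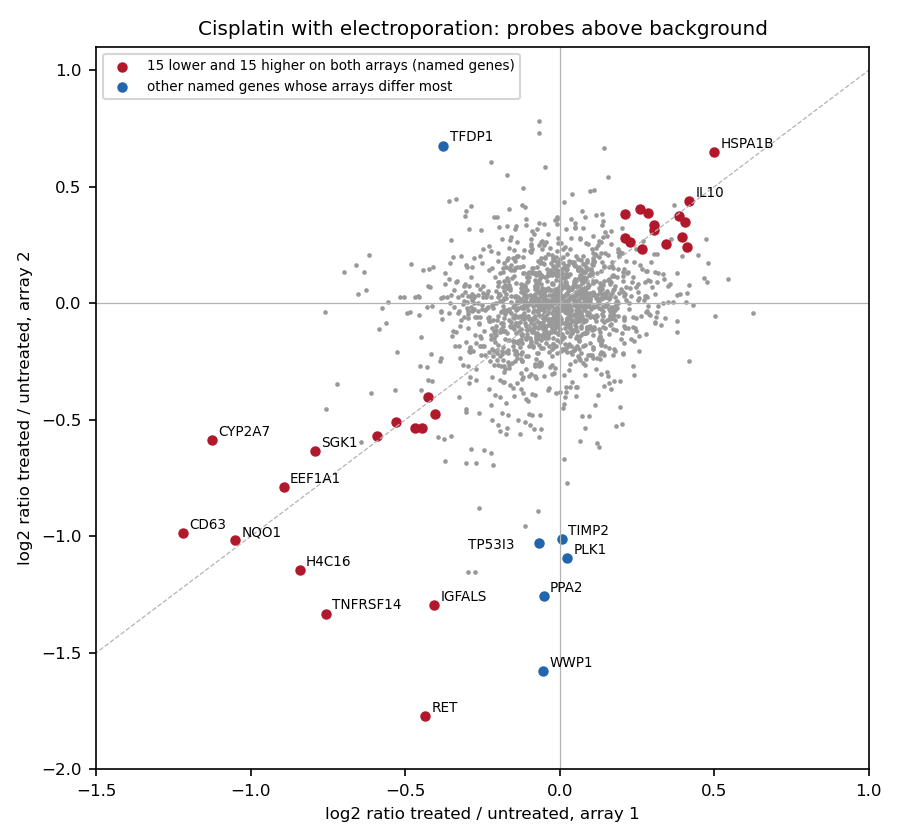
Log2 ratio of treated over untreated on array 1 (x axis) and array 2 (y axis), a point per probe above background (1578). The dashed line marks equal ratios. CD63, NQO1, EEF1A1 and H4C16 lie far below 0 on both arrays, HSPA1B is the gene farthest above 0 on both, and WWP1, PPA2, PLK1, TIMP2 and TP53I3 are near 0 on array 1 and at -1.01 or lower on array 2.

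CD63 shared the lowest adjusted p and had the larger change of the 2 genes at that p. It encodes a tetraspanin of late endosomes, lysosomes and melanosomes and lies on chromosome 12. Its raw Cy3 and Cy5 intensities were 3902 and 1252 on array 1 and 4264 and 1590 on array 2, on local backgrounds of 12.7 to 16.3. The normalized log2 ratios were -1.22 and -0.99, with a mean of -1.10 ± 0.099 (SE from the 5-array model), a 95% interval of -1.35 to -0.86 and an adjusted limma p of 0.053. Over 21 alternatives its adjusted p ran from 0.0027 to 0.68, and it was called in 7 of them. The mean of -1.10 stands for a ratio of treated over untreated 2.15-fold below the trend of probes of equal brightness. On the 3 cisplatin arrays CD63 was at -0.31, -0.10 and 0.06, so the 2 treatments did not overlap. The 3 spots of array 1 were far apart, from -2.21 to -0.69, while those of array 2 lay between -1.09 and -0.90.

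Other lysosomal and tetraspanin genes were closer to 0. Of 12 measured genes of this list, 0 passed the test, 7 were negative on both arrays and 2 were positive on both, and the median ratio was -0.05. Over all 2078 named genes, 29.7% were negative on both arrays, 25.5% were positive on both and the median was -0.006. CD82, whose tetraspanin restrains metastasis in several cancers, was at -0.38 and -0.07, and PSAP, the precursor of the saposins that help to break down sphingolipids, was at -0.28 and -0.03. Both genes were far from CD63 on the second array.

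NQO1 was the member with the lowest value on its less changed array. It encodes a quinone reductase of the antioxidant response and lies on chromosome 16. Raw Cy3 and Cy5 intensities were 383 and 103 on array 1 and 413 and 110.0 on array 2. The ratios were -1.05 and -1.02, with a mean of -1.03 ± 0.17 (SE) and an adjusted limma p of 0.13. The adjusted p of NQO1 ran from 0.0042 to 0.68 over 21 alternatives, with a call in 4. The cisplatin arrays gave -0.65, -0.60 and 0.06, so that 2 of these 3 arrays were low as well. CYP2A7, a cytochrome P450 gene on chromosome 19 whose close relatives may share its probe, was at -1.13 and -0.59 with the combination and at -0.61, -0.33 and -0.29 with cisplatin. Of 12 measured redox and detoxification genes 5 were negative on both arrays and 2 were positive on both, with a median of -0.006. CYP3A4, which encodes a drug-metabolising cytochrome P450, was on the other side at 0.21 and 0.38, and its mean turned to -0.02 under median centring without loess. Only 2 of 6 measured platinum transport genes were above background, ABCC2 at -0.02 and 0.04 and MVP at 0.01 and -0.20.

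**Figure D2:**
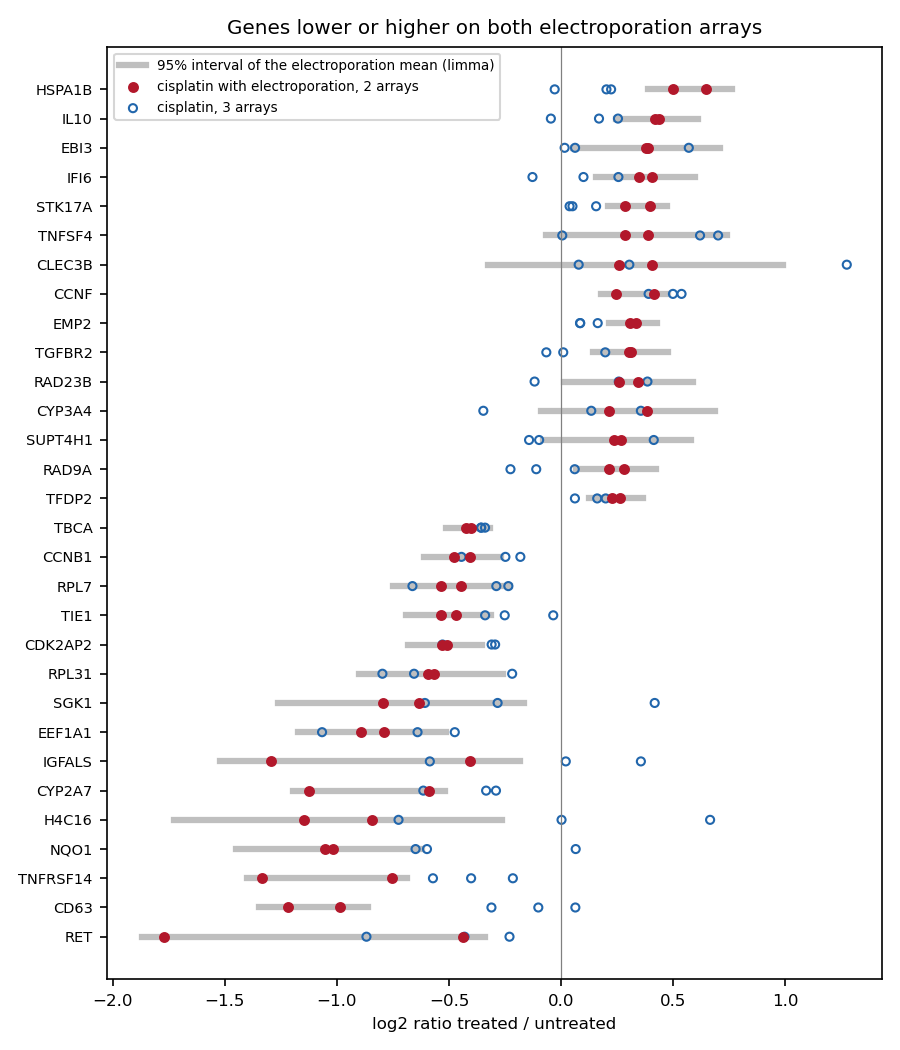
Log2 ratio of treated over untreated for the 15 genes farthest below and the 15 genes farthest above 0 on both combination arrays, ranked by the array nearer 0. Filled points are the 2 combination arrays, open points the 3 cisplatin arrays, and bars the 95% interval of the combination mean; for CD63 and HSPA1B the filled and open points do not overlap, and for EEF1A1, RPL31 and RPL7 they do.

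Housekeeping and translation genes tended to lie below the trend. Of 9 measured housekeeping genes 6 were negative on both arrays and 0 were positive on both, with a median of -0.24. At an unadjusted limma p under 0.05, 4 were lower, against 5.97% of all probes, although 0 passed the adjusted test. GAPDH was at -0.27 and -0.69, LDHA at -0.35 and -0.57 and PPIA, which encodes cyclophilin A, at -0.53 and -0.37. ACTB, the gene of beta-actin, had opposite signs at -0.48 and 0.17. The cisplatin arrays gave GAPDH at -0.47, -0.30 and -0.17, 2 of them within the range of the combination and 1 above it. LDHA was less low with cisplatin, at -0.23, -0.06 and -0.03.

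Among 11 measured genes of ribosomes and translation, 7 were negative on both arrays and 2 were positive on both, and the median was -0.17. With cisplatin alone the median of this list was -0.22. EEF1A1 encodes the elongation factor that brings aminoacyl-tRNA to the ribosome, and it has close copies in the genome that its probes may also bind. Its lowest probe was at -0.89 and -0.79 (adjusted limma p of 0.13), with raw Cy3 and Cy5 intensities of 636 and 204 on array 1 and 673 and 241 on array 2. That probe was called in 3 of 20 alternatives, with adjusted p from 0.0084 to 0.68. A brighter probe of EEF1A1 was at -0.72 and -0.35. Cisplatin alone gave -1.07, -0.64 and -0.47 for the first probe, so the treatments overlapped. RPL31, of the large ribosomal subunit, was at -0.59 and -0.57, and the cisplatin arrays were at -0.22, -0.80 and -0.66. RPL7, also of the large subunit, was low with both of its probes, at -0.45 and -0.53 and at -0.38 and -0.58. RPS19 and EIF4A1 were above 0 on both arrays, at 0.04 and 0.18 and at 0.05 and 0.18.

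TBCA, which encodes a chaperone for newly made tubulin and lies on chromosome 5, had the narrowest interval among the leading genes. Its ratios were -0.43 and -0.40, with a mean of -0.41 ± 0.040 (SE), an interval of -0.51 to -0.32 and an adjusted limma p of 0.053. It was called in 1 of 21 alternatives, median centring, with an adjusted p of 0.043 in a range of 0.043 to 0.68. Cisplatin alone gave -0.36, -0.34 and -0.36, so that all 5 arrays lay within 0.1 of each other. Of 18 measured genes of the cytoskeleton, 9 were negative on both arrays and 3 were positive on both. TUBA1B, an alpha-tubulin whose close relatives may share its probe, was at -0.17 and -0.53, and VIM, the gene of vimentin, was at -0.19 and -0.40. H4C16, a histone H4 gene on chromosome 12, was at -0.84 and -1.15 with a single probe, while 5 other probes listed for it had means between -0.20 and 0.09. Histone H4 is encoded by many near-identical copies, and the cisplatin arrays for the low probe ran from -0.73 to 0.66.

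Cell cycle genes went both ways. Of 40 measured genes of the cell cycle machinery, 14 were negative on both arrays and 11 were positive on both. At an unadjusted limma p under 0.05, 4 were lower and 4 higher, against 5.97% and 3.28% of all probes. None of the 40 passed the adjusted test. CCNB1, the gene of cyclin B1 that drives entry into mitosis, was at -0.41 and -0.48 (mean -0.44 ± 0.070 SE, adjusted limma p of 0.13), and it was called in 2 of 20 alternatives, with adjusted p from 0.020 to 0.68. It was dim, with a raw Cy5 of 31.3 and 28.3 over a Cy5 background of 16.3 on array 1, and cisplatin alone gave -0.25, -0.44 and -0.18. CDK2, the kinase that works with cyclins E and A in DNA synthesis, was at -0.27 and -0.33, and the cisplatin arrays were at 0.03, 0.00 and 0.04. TOP2A, which encodes the topoisomerase that untangles chromosomes, was at -0.39 and -0.25. SKP2, the F-box protein that marks the CDK inhibitor CDKN1B for destruction, was low mainly on the second array, at -0.27 and -1.15.

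Genes on the other side were CCNF, which encodes the F-box protein cyclin F, at 0.41 and 0.24, and CDC25C, the phosphatase that activates CDK1, at 0.54 and 0.10. CCNF was as high with cisplatin alone, at 0.50, 0.39 and 0.54, and its mean turned to -0.02 for the combination under median centring without loess. CDK1 itself was at -0.01 and -0.03, and MKI67, a proliferation marker, at 0.06 and -0.07. CDK2AP2, which encodes a CDK2-associated protein, was at -0.53 and -0.51, with cisplatin at -0.53, -0.29 and -0.31. The promoter of CCNB1 is shown because CCNB1 was the single gene of the 40 at -0.3 or less on both arrays, against 1.05% of all probes. RefSeq (GRCh38.p14) places this window of 250 bases before to 50 after the start on the plus strand of chr5:69166900-69167199. Capitals mark the CCAAT box, searched as the letters CCAAT on both strands. Both matches begin before the start, at -87 and -55 with the start at 0. Of 35116 RefSeq promoter windows of the same length, 34.6% hold this motif.
CCNB1: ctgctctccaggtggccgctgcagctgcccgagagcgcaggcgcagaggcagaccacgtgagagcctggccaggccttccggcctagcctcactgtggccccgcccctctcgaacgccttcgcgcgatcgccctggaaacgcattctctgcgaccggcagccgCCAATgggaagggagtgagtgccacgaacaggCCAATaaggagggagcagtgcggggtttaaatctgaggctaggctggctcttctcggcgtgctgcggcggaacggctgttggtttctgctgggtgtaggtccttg

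HSPA1B was the highest gene. It encodes an inducible HSP70, the chaperone that refolds damaged proteins, and lies on chromosome 6 beside HSPA1A, a nearly identical gene whose RNA the probe may also bind. Raw Cy3 and Cy5 intensities were 139 and 138 on array 1 and 183 and 193 on array 2, while the median foreground over all spots was 41 in Cy3 and 32 in Cy5 on array 1 and 43 and 28 on array 2. The log2 ratios were 0.50 and 0.65, with a mean of 0.57 ± 0.076 (SE), an interval of 0.39 to 0.76 and an adjusted limma p of 0.12. Its adjusted p ran from 0.022 to 0.68 over 21 alternatives, with a call in 2, the authors' value table and no background correction. The mean of 0.57 corresponds to a ratio of treated over untreated 1.49-fold above the trend of probes of equal brightness. Cisplatin alone gave 0.22, 0.20 and -0.03, and the treatments did not overlap. A second probe for HSPA1B, of nearly equal brightness, was at 0.18 and -0.11, so the probes disagreed.

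The DNAJ proteins are the partners that pass substrates to HSP70. DNAJA1 was at 0.16 and 0.54, and DNAJB1 was at 0.32 and 0.13. Cisplatin arrays for DNAJA1 were at -0.01, 0.09 and 0.24. Together with HSPA1B these were the 3 higher genes, at an unadjusted limma p under 0.05, among 15 measured heat shock and stress response genes, and 1 was lower. Over all probes, 3.28% were higher and 5.97% lower at that level. The whole list had 5 genes positive and 4 negative on both arrays, with a median of 0.02, and 0 passed the adjusted test. HSP90AB1, a constitutive HSP90 gene, was at 0.10 and -0.11, and HSPA5, the chaperone of the endoplasmic reticulum, at -0.12 and -0.32. The lower gene was ATF5, which encodes a stress-induced transcription factor, at -0.22 and -0.50.

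The promoters of HSPA1B and DNAJA1 are shown because these chaperone genes were the highest of the stress list. Capitals mark the heat shock element core, searched as GAANNTTC, which reads the same on both strands. RefSeq (GRCh38.p14) places the HSPA1B window on the plus strand of chr6:31827488-31827787, with 1 match beginning at -105. The DNAJA1 window is on the plus strand of chr9:33025023-33025322, with 2 matches, at -198 and 3. The motif occurs in 6.77% of the 35116 promoter windows, and a match describes letters only, not a bound site.
HSPA1B: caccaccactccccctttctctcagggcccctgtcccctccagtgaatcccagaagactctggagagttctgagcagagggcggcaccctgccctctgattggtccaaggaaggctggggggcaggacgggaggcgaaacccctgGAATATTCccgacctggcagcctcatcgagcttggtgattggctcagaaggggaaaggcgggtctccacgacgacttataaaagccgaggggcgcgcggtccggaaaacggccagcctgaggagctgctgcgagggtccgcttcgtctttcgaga
DNAJA1: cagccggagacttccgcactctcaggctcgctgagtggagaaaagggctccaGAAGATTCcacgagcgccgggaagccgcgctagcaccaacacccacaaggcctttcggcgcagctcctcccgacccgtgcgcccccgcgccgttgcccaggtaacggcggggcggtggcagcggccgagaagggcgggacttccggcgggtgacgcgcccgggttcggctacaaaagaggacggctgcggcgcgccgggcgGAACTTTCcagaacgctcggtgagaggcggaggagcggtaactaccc

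The remaining genes at 0.3 or more on both arrays were few. IL10, an anti-inflammatory cytokine, was at 0.42 and 0.44 (adjusted limma p of 0.16), with raw Cy3 and Cy5 of 323 and 286 on array 1 and 391 and 354 on array 2. IL10 was at -0.05, 0.25 and 0.17 with cisplatin. EBI3, a subunit of cytokines of the interleukin-12 family, was at 0.39 and 0.38, and 1 cisplatin array was higher, at 0.57. IFI6, an interferon-induced mitochondrial protein, was at 0.40 and 0.35 and did not overlap with cisplatin at -0.13, 0.26 and 0.10. EMP2, an epithelial membrane protein, was dim, with 0.30 and 0.33 against cisplatin values of 0.08, 0.08 and 0.16. TGFBR2, the type II receptor for TGF-beta, was at 0.30 and 0.31, but its mean was -0.04 under median centring without loess. The unnamed probe VM_H300004510, at 0.37 and 0.42, completes the 7 probes. Of 30 measured cytokine and chemokine genes 8 were positive and 4 negative on both arrays.

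Genes just short of that level held mixed roles. STK17A, a kinase related to death-associated protein kinases, was at 0.40 and 0.28, but single spots of array 1 ran from -0.23 to 1.33. TNFSF4, the OX40 ligand, was at 0.29 and 0.39, below cisplatin values of 0.62 and 0.70 and above the remaining cisplatin value of 0.00. CLEC3B, the gene of tetranectin, was at 0.26 and 0.41, with a cisplatin array at 1.27. TFDP2, a partner of E2F factors, was at 0.23 and 0.26, and its second probe was at 0.00 and -0.03. SUPT4H1, a transcription elongation factor, was at 0.27 and 0.23, and RAD9A, of the 9-1-1 checkpoint clamp, was at 0.21 and 0.28. The means of SUPT4H1 and RAD9A turned to -0.07 and -0.05 under median centring without loess.

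DNA repair genes were spread around 0. Of 32 measured genes 10 were negative on both arrays and 10 were positive on both, with a median of -0.006. At an unadjusted limma p under 0.05, 3 were lower and 1 higher, against 5.97% and 3.28% of all probes. None of the 32 passed the adjusted test. RPA3, a subunit of the protein that coats single-stranded DNA, was at -0.33 and -0.40. TDG, a DNA glycosylase, was at -0.18 and -0.28. RAD23B, which works with XPC in finding damage for nucleotide excision repair, was at 0.34 and 0.26, and XPC itself was at 0.05 and -0.06. RAD23B was about as high on 2 cisplatin arrays, at 0.38 and 0.26, and at -0.12 on the third. ERCC4, a nuclease subunit of nucleotide excision repair and crosslink repair, was at 0.10 and 0.13.

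Targets of p53 showed no common direction. Of 18 measured targets, 11 were above background, 4 of the 18 were negative and 5 positive on both arrays, and the median was -0.004. GADD45A, a growth arrest gene, was at -0.08 and 0.15, PCNA, the sliding clamp of DNA polymerases, at 0.03 and -0.05, and CCNG1, which encodes cyclin G1, at -0.11 and -0.12. GADD45A and PCNA were, with NUMA1, the 3 probes just inside the brightness rule, at 2.00 and 2.01 SD over background. TNFRSF10B, the TRAIL receptor DR5, was just outside it at 2 SD, with ratios of 0.14 and 0.07. TP53I3 had the lowest mean of these targets, -0.55, from -0.07 and -1.03, with cisplatin at -0.09, -0.30 and -0.92. Another member probe for TP53I3 was at -0.22 and -0.01. TP53I11 was at -0.12 and -0.21. PPM1D, a phosphatase that switches the damage response off, was at 0.30 and 0.07, and its mean was -0.09 under median centring without loess.

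The list of TNF ligands, receptors and adaptors, which includes the death receptors, contained a single large value. TNFRSF14, the receptor HVEM of the ligand LIGHT on chromosome 1, was at -0.76 and -1.33, with a mean of -1.04 ± 0.15 (SE), an interval of -1.40 to -0.69 and an adjusted limma p of 0.12. Its adjusted p ran from 0.0031 to 0.68 over 21 alternatives, with a call in 4. Its raw Cy3 and Cy5 were 320 and 107 on array 1 and 358 and 66.4 on array 2, and the cisplatin arrays were at -0.22, -0.57 and -0.40, above both. Of the 37 measured TNF and death receptor genes 7 were negative on both arrays and 13 were positive on both, with a median of 0.01. TNFRSF1A, the main TNF receptor, and its adaptor TRADD were slightly above 0, at 0.11 and 0.21 and at 0.13 and 0.22. Only 19 of these 37 genes were above background.

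Of 18 measured death inhibitors, 3 were negative and 8 positive on both arrays, with a median of 0.03. At an unadjusted limma p under 0.05, 3 were higher and 1 lower, against 3.28% and 5.97% of all probes. The higher genes were TNFAIP3, the NF-kB inhibitor A20, at 0.12 and 0.21, CFLAR, the caspase-8 inhibitor FLIP, at 0.20 and 0.13, and BAG3, a co-chaperone of HSP70, at 0.07 and 0.32. The lower gene was BIRC5, encoding survivin, at -0.21 and -0.14. On the side that promotes mitochondrial death, BNIP3 was at 0.17 and 0.12, BCL2L11, the gene of BIM, was at 0.09 and 0.15, and ENDOG, a mitochondrial nuclease, was at -0.26 and -0.14. Of 13 measured caspase and related genes, 4 were negative and 6 positive on both arrays, and 6 were above background. NF-kB subunits differed in sign, with NFKB2 at -0.33 and -0.18 and NFKB1 at 0.21 and 0.18; the mean of NFKB1 turned to -0.15 under median centring without loess. None of these genes passed the adjusted test.

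Pigment lineage genes were mostly at or below 0. Of 12 measured genes, 7 were negative and 1 positive on both arrays, and the median was -0.08. MLANA, a melanosome antigen, was at -0.17 and -0.56, S100B, a calcium-binding melanoma marker, at -0.11 and -0.96, and EDNRB, the endothelin receptor of melanocyte precursors, at -0.15 and -0.36. All of these were lower on the second array. The transcription factor MITF was at -0.11 and -0.01, SOX10 at -0.25 and 0.31, and the enzyme TYR at 0.05 and -0.19. Markers of other cell types lay on both sides of 0. Epithelial markers had 3 of 6 negative and 1 positive on both arrays, with means from -0.20 to 0.08. KRT19 and CDH1 were lower at an unadjusted limma p under 0.05, a level at which 5.97% of all probes were lower. The fibroblast markers were DCN, lower at that level with a mean of -0.21, and COL3A1 with a mean of 0.03. Endothelial markers had 2 of 5 negative and 1 positive, with means from -0.50 for TIE1 to 0.05. Leukocyte markers had 2 of 6 negative and 1 positive, with means from -0.29 for CD8A to 0.03 and a median of -0.01. The part of these markers in other results was not tested.

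**Figure D3:**
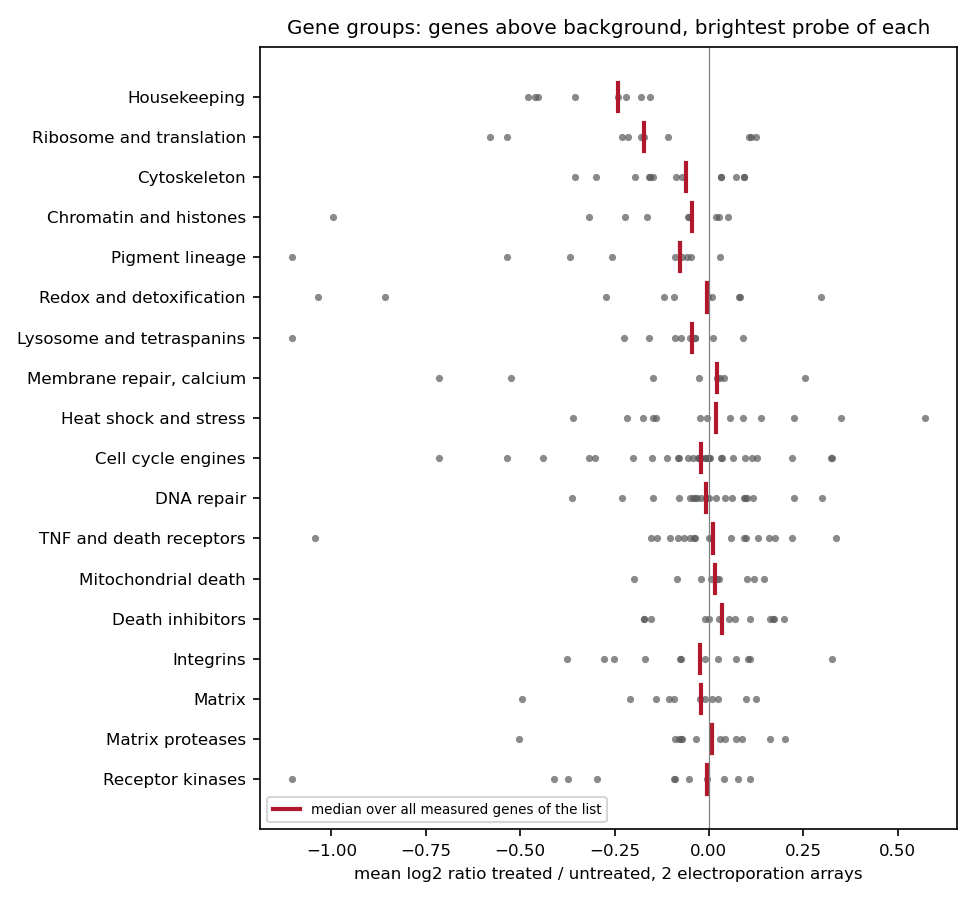
Mean log2 ratio of treated over untreated on the 2 combination arrays for 18 gene lists; each grey point is a gene above background by its brightest probe, and the red bar is the median over all measured genes of the list. Housekeeping (-0.24) and ribosome and translation genes (-0.17) have the lowest medians shown, and the other lists lie close to 0 with single genes far out.

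Calcium handling and membrane repair had 9 measured genes, of which 2 were negative and 4 positive on both arrays, with a median of 0.02. ATP2A3, a calcium pump of the endoplasmic reticulum, was at -0.37 and -0.68, with cisplatin at -0.04, 0.16 and -0.03, and a second probe for it was at -0.20 and -0.05. SGK1, a kinase induced by serum, glucocorticoids and osmotic stress, was at -0.79 and -0.64 (mean -0.71 ± 0.22 SE). The cisplatin arrays for SGK1 ran from -0.61 to 0.42. ANXA5, an annexin that binds exposed phosphatidylserine, was at 0.04 and 0.47 and had a mean of -0.03 under median centring without loess.

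Adhesion and matrix genes, which bear on the study's question about metastatic behaviour, held few values away from 0. Of 17 measured integrin genes and partners 7 were negative and 4 positive on both arrays, with a median of -0.02. ITGA7, a laminin-binding integrin subunit, was at 0.48 and 0.17, similar to 0.50, 0.24 and 0.22 with cisplatin, and its mean was -0.01 under median centring without loess. ITGB1, the beta subunit shared by many integrins, was at 0.02 and -0.77. LAMB3, a chain of laminin 332, was at -0.30 and -0.69, and L1CAM, a neural adhesion molecule found in melanoma, was at -0.38 and -0.24. Among 22 measured cadherins and adhesion molecules 6 were negative and 9 positive on both arrays, and CDH1, E-cadherin, was at -0.18 and -0.12.

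Of 25 measured matrix proteases and inhibitors 12 were above background, 5 were negative and 9 positive on both arrays, and the median was 0.008. MMP2, which degrades collagen of basement membranes, was at 0.31 and 0.09 and had a mean of -0.14 under median centring without loess. MMP10 was at 0.23 and 0.09 and MMP1 at 0.03 and 0.06. Its inhibitor family was low in TIMP2 on the second array alone, at 0.01 and -1.01. Among 8 measured metastasis suppressors, NME1 was at -0.14 and -0.09 and NME2 at -0.65 and 0.04, and 4 of the 8 were negative on both arrays. Among 9 measured promoters of metastasis 1 was negative and 3 were positive on both, with CD44, the hyaluronan receptor, at 0.09 and 0.16. None of the genes in these lists passed the adjusted test.

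Receptor kinases included 3 genes at -0.3 or less on both arrays, of 23 measured, against 1.05% of all probes. None of the 23 passed the adjusted test. RET, the receptor of GDNF family ligands, had the lowest mean of all members, -1.10 ± 0.31 (SE), from -0.44 and -1.77. Its raw Cy3 and Cy5 were 512 and 238 on array 1 and 612 and 88.3 on array 2. NTRK2, a neurotrophin receptor, was at -0.45 and -0.37, and the cisplatin arrays were at -0.34, -0.50 and -0.45. Its 2 other probes were outside the brightness rule, with means of 0.06 and -0.03. EPHB6, an ephrin receptor without kinase activity, was at -0.41 and -0.33. TIE1, a receptor kinase of endothelium, was listed with the angiogenesis genes and so is not in the count above, and it was at -0.47 and -0.54. IGFALS, which binds IGF complexes in serum, was at -0.41 and -1.30 with 1 probe and at 0.13 and -0.62 with another. GSK3B, a kinase of the WNT and insulin pathways, was on the other side at 0.45 and 0.21.

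Other groups were spread around 0 or leaned slightly to a side, and 0 of their genes passed the adjusted test. Of 11 measured genes of the RB and E2F axis, 1 was negative and 4 positive on both arrays, with a median of 0.13, and RBL2, a pocket protein related to RB1, was at 0.47 and 0.11. Of 17 measured ubiquitin ligases and partners 9 were negative and 4 positive, with a median of -0.04, and the ubiquitin gene UBB was at -0.25 and -0.63. Of 14 measured chromatin and histone genes 7 were negative and 2 positive. Immediate early genes had 6 of 17 negative and 3 positive, growth signalling genes 13 of 36 and 9, and TGF-beta, WNT and Notch genes 8 of 32 and 5. Angiogenesis genes had 8 of 24 negative and 7 positive. Antigen presentation genes had 2 of 8 negative and 3 positive, with a median of 0.13. B2M, the light chain of MHC class I, had the lowest mean of that list, from -0.23 and -0.21. TAPBP had the highest mean, from -0.02 and 0.36, which turned to -0.17 under median centring without loess.

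The arrays disagreed most for a set of genes that were low on array 2 only. WWP1, a ubiquitin ligase, was at -0.05 and -1.58, PPA2, a mitochondrial pyrophosphatase, at -0.05 and -1.26, and PLK1, the mitotic polo kinase, at 0.02 and -1.09. TIMP2 and TP53I3 followed the same pattern, although a second bright enough probe for TP53I3 was at -0.22 and -0.01, and RET and IGFALS were low on both but lower on array 2. Spots of the same probe were close together within each array. For WWP1 they ran from -0.14 to 0.04 on array 1 and from -1.61 to -1.52 on array 2, and for PLK1 from -0.18 to 0.19 and from -1.19 to -1.01. These differences were thus far larger than the spread among spots. TFDP1, the main partner of E2F factors, went the other way, at -0.38 and 0.68, with array 2 spots from 0.09 to 1.76.

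Against cisplatin without pulses, the direct comparison of the treatments called 0 of 3048 probes (0%), with a lowest adjusted limma p of 0.85. At an unadjusted limma p under 0.05 there were 124 of the 3048 probes. This share is below the 0.05 that such a threshold passes on average without any difference, so the genes below are a ranking only. The comparison between treatments cancels a dye preference that is the same on all arrays. The comparisons with untreated cells do not, since no array had its dyes exchanged. The smallest unadjusted p belonged to CD63, whose difference of combination minus cisplatin lay below 0 on every array pairing, as the values above show. CDK2 came next. MYB, a transcription factor of progenitor cells, was at -0.34 and -0.18 against 0.09, 0.06 and 0.09, and PRMT1, an arginine methyltransferase, was at -0.61 and -0.39 against 0.13, -0.11 and -0.05. HOXD10, a homeobox gene, was higher with the combination, at 0.27 and 0.15 against -0.20, -0.09 and -0.08, though the combination mean turned to -0.08 under median centring without loess.

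Of the 1578 members, 310 had the same sign on all 5 arrays. Of the 1351 members that name a gene, 56 had one sign on both combination arrays and the opposite sign on all 3 cisplatin arrays. Of the 32 probes lower on both combination arrays, 16 were below 0 on every cisplatin array. Of the 7 higher ones, 3 were above 0 on every cisplatin array. The shares of all members below or above 0 on every cisplatin array were not counted. The counts of 16 and 3 therefore do not show whether the treatments agreed more for these probes than for members in general. Among genes with several member probes, 23 of 44 had the same sign with every probe.

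**Figure D4:**
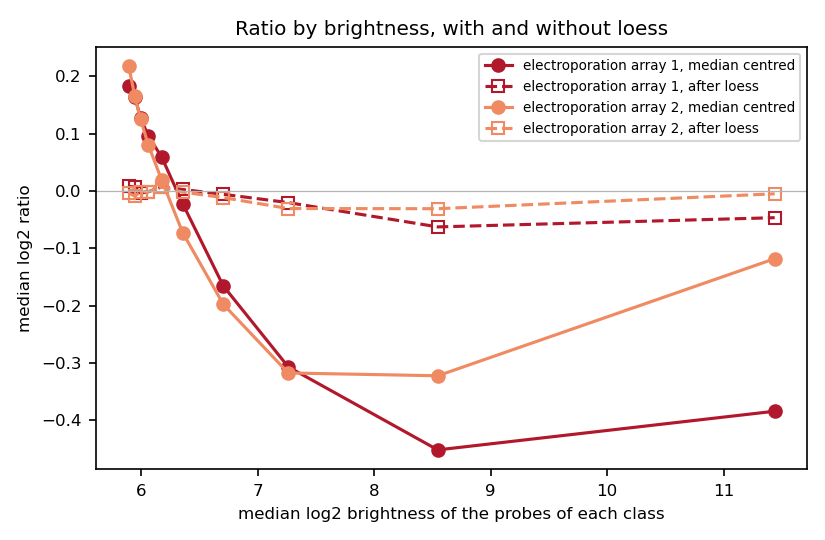
Median log2 ratio (y axis) of the probes in each of 10 equal classes of brightness (x axis, log2), for both combination arrays, after median centring alone (filled points) and after loess (open squares). Before loess the median went from 0.18 and 0.22 in the dimmest class to -0.45 and -0.32 in the class next to the brightest, and after loess each median lay between -0.06 and 0.01.

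Before loess, the ratio depended on brightness. With median centring alone the dimmest class of probes had a median of 0.18 on array 1 and 0.22 on array 2, and the class next to the brightest had -0.45 and -0.32. The first cisplatin array had the same shape, with 0.16 and -0.49. The second was much flatter, at 0.03 and -0.07, and the third was nearly flat at -0.01 and 0.002. Bright genes were therefore lower, and fewer genes were higher, when this trend was left in. Apart from the values given under median centring without loess or another named alternative, a ratio above or below 0 is relative to probes of the same brightness.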

How the data were processed

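RNA was measured in SK-MEL28 cells on 5 arrays, each comparing treated (Cy5) with untreated (Cy3) RNA per the labels. Scanner files hold raw foreground and background intensity per spot in 2 channels, as deposited by the authors and without normalization per the file headers. The authors' deposited value table holds a log2 ratio per probe with its normalization not given in the sources used here, and it was an alternative only. No header names the dyes: channel 1 was read as Cy3 and channel 2 as Cy5 from the labels' order. The sources used here name no scanner, scan date or spot position.

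Median foregrounds were corrected with normexp (offset 50), and ratios were normalized by loess (span 0.3) in limma 3.58.1 (R 4.3.3). This offset shrinks the ratios of dim probes the most. Probes were the mean of their first listed spots, 3 of 4, 5 of 8 or 8 of 12. A single limma model over 5 arrays tested each treatment against 0 and the difference, two-sided, adjusted by Benjamini and Hochberg over 3048 probes at 0.05. Its 3 residual degrees of freedom were joined by a prior worth 2.86, so standard errors also carry the spread of the cisplatin arrays. The number of arrays limits precision. The procedure was run on simulated data to check the sign of added changes, and no conclusion about its power is drawn from that run.

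The platform annotation gave 2192 probes 1 gene each and 856 none, with symbols updated to RefSeq through gene identifiers. In a list a gene was taken by its brightest probe. Genes were named by 4 rules, the first 3 of them among probes above background only. The first took up to 15 genes per direction, ranked by the array nearer 0. The second took up to 3 genes per list, those farthest from 0. The third took 8 genes with the largest difference between the arrays. The last took, among all named probes, 6 genes with the smallest p between treatments. Other genes in the text were chosen after their values were seen, to show the rest of a list. Members, lists and rules were chosen with earlier results of these data known. Alternatives concerned background correction, normalization, spots, filters, the variance model, the value table and each array left out. Named list members with a mean within 0.15 of 0 were not followed through the alternatives.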

Additional observations from a re-analysis of the deposited data

How the results depend on the processing

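Calls against untreated cells numbered 0 in the values reported. They were 7 without background correction, 39 under median centring without loess, 2 with scale normalization between arrays, 8 in the authors' value table (1314 probes tested), 3 when only probes above background were tested, 3 with only the electroporation arrays in the model, and from 0 to 1 when 1 array was left out (NQO1 without the third cisplatin array). Fits with the replicate number as a block gave 2 calls; the numbers were not shown to pair the samples, since deviations correlated at 0.27 for number 1 and 0.06 for number 2. CD63 was called in each of the 7 alternatives with calls among the 16 that dropped no single array. The difference between treatments had 0 calls in every alternative run, with 55 to 210 probes at an unadjusted p under 0.05. Probes lower on both arrays numbered 32 and became 53 without background correction, 130 with normexp offset 0, 248 with plain subtraction and 293 under median centring. Probes higher on both numbered 7 and became 3 with all listed spots, 30 without background correction, 90 with offset 0, 222 with plain subtraction, 2 under median centring and 12 in the authors' table. Among such probes the lower share was 82.1% here, 99.3% under median centring, 63.9% without background correction, 59.1% with offset 0 and 52.8% with plain subtraction. Counted over members only, an alternative chosen after seeing the data, the lower and higher probes were 49 and 19 without background correction, 63 and 31 with offset 0, 80 and 49 with plain subtraction and 291 and 1 under median centring. Members numbered between 1342 and 1667 under other brightness rules. The causes were not tested.

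Of 2255 values of 108 named probes under alternatives, 35 changed sign. Median centring without loess gave -0.038 for TGFBR2, -0.017 for CCNF, -0.075 for SUPT4H1, -0.020 for CYP3A4, -0.050 for RAD9A, -0.029 for ANXA5, -0.12 for DAD1, -0.15 for NFKB1, -0.085 for PPM1D, -0.15 for RBBP4, -0.12 for E2F3, -0.065 for NF1, -0.17 for RB1, -0.049 for JUND, -0.040 for DUSP2, -0.012 for ITGA7, -0.14 for MMP2, -0.039 for NRP2, -0.16 for CRKL, -0.17 for TAPBP, -0.068 for TFDP1 and -0.080 for HOXD10. With each array left out in turn, MAP3K14 ran from -0.62 to 0.21, PLK1 from -1.09 to 0.023, E2F3 from -0.0079 to 0.37, RB1 from -0.010 to 0.36, ITGB1 from -0.77 to 0.024, TIMP2 from -1.01 to 0.0062, NME2 from -0.65 to 0.040, AKT1 from -0.59 to 0.064, SMO from -0.042 to 0.63, TAPBP from -0.016 to 0.36 and TFDP1 from -0.38 to 0.68, the sign turning without 1 of the electroporation arrays. TFDP1 was also -0.16 with the median of the spots and -0.11 with the mean foreground.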
